A study of Mus musculus with 16 samples.

Results

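The erythroid genes described here were Slc4a1, Rhag, Epb42, Alas2, Hemgn, Klf1 and Gata1. They were taken by gene symbol from the annotation of the array platform. All 7 had a probe set, 1 each, among 22206 probe sets that are no control. The arrays measured mRNA of cells sorted from mouse olfactory mucosa, the lining of the nose in which the odour-sensing neurons lie. The mice were C57BL/6 of both sexes, 7 to 12 weeks old, and carried GFP under the control of S100a5, which these neurons transcribe when they are active. The mice sat singly in clean air for 40 h, and from 26 h on they received pulses of undecanal, an aldehyde odorant, or of filtered air as vehicle, for 10 s every 20 min. Dissociated mucosa of 3 mice was pooled and sorted on GFP, which gave 4 pools per agent, 2 sort fractions per pool and 16 arrays. The groups of 4 arrays each were undecanal titled GFP+, undecanal titled GFP-, vehicle titled GFP+ and vehicle titled GFP-.

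Red cells arise in the bone marrow from nucleated erythroblasts, which divide, make haemoglobin and build a membrane skeleton before they lose the nucleus. Young red cells in blood, the reticulocytes, still hold RNA of these genes. The transcription factors Gata1 and Klf1 drive the programme. Alas2 catalyses the first step of haem synthesis in erythroid cells, and Slc4a1, Rhag and Epb42 encode proteins of the red cell membrane. Hemgn is a nuclear protein of blood-forming cells. The olfactory mucosa itself is rich in blood vessels.

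The GFP sign in the titles was the opposite of the sign in the sample characteristics in every sample (16 of 16), and the 2 fractions are therefore named by their title, as titled GFP+ or titled GFP-. S100a5 itself was lower in titled GFP+ than in titled GFP-, by a log2 difference of -0.97 in undecanal pools (adjusted p = 0.000394) and -0.91 in vehicle pools (adjusted p = 0.000715; limma for both), which goes with the characteristics and against the titles. Every direction between fractions below therefore rests on the titles. Omp, the marker of mature olfactory neurons, did not pass between fractions (log2 difference -0.05 in undecanal pools and -0.00 in vehicle pools). Values are the authors' log2 probe set summaries. Levels under log2 4.80, the 95th percentile of group means of 356 vomeronasal and bitter receptor probe sets, are called below background. Arrays have no depth, and their number limits the precision.

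The 3 membrane genes were all higher in titled GFP+ than in titled GFP- cells, in the undecanal and in the vehicle pools. Slc4a1 encodes the anion exchanger of the red cell membrane, which trades chloride for bicarbonate. Its log2 level in arrays 1 to 4 was 12.08, 11.04, 10.24 and 10.57 in undecanal titled GFP+ cells, against 7.98, 7.28, 8.46 and 8.48 in undecanal titled GFP- cells. In vehicle titled GFP+ cells it was 11.55, 10.77, 11.87 and 10.81, against 8.09, 8.67, 7.80 and 7.99 in vehicle titled GFP- cells. The lowest titled GFP+ array stood above the highest titled GFP- array under both agents. The difference between fractions was a log2 2.93 in undecanal pools (SE 0.365, 95% interval 2.16 to 3.70, adjusted p = 1.06e-05) and 3.11 in vehicle pools (interval 2.34 to 3.88, adjusted p = 4.95e-06), or 7.63-fold and 8.65-fold, by limma with Benjamini-Hochberg adjustment over all probe sets. All 16 arrays were above background, so Slc4a1 was measured in both fractions.

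Rhag encodes the Rh-associated glycoprotein, a membrane protein that the Rh proteins need to reach the red cell surface. Its log2 level was 8.58, 7.11, 7.01 and 6.67 in undecanal titled GFP+ cells, against 3.89, 2.72, 3.42 and 3.72 in undecanal titled GFP- cells. It was 8.21, 8.07, 7.32 and 7.40 in vehicle titled GFP+ cells, against 3.05, 2.61, 2.60 and 2.55 in vehicle titled GFP- cells. The 8 titled GFP+ arrays were all above background and the 8 titled GFP- arrays all below it. The measured difference was a log2 3.91 in undecanal pools (interval 3.18 to 4.63, adjusted p = 1.48e-07, limma) and 5.05 in vehicle pools (interval 4.32 to 5.77, adjusted p = 5.07e-09, limma). Set against the background level, Rhag was at least 5.82-fold higher in undecanal pools and at least 7.71-fold higher in vehicle pools. In bulk samples of this kind, fewer cells of a type and less RNA per cell cannot be told apart.

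Epb42 encodes a protein that ties the anion exchanger to the spectrin skeleton under the membrane. Its log2 level was 6.64, 5.15, 4.93 and 5.49 in undecanal titled GFP+ cells, against 3.12, 3.62, 3.45 and 3.37 in undecanal titled GFP- cells. It was 5.72, 5.42, 4.79 and 5.99 in vehicle titled GFP+ cells, against 3.57, 3.90, 4.01 and 3.62 in vehicle titled GFP- cells. The fractions did not overlap under either agent, but 1 vehicle titled GFP+ array and all 8 titled GFP- arrays were below background. The measured difference was a log2 2.16 in undecanal pools (adjusted p = 4.35e-05) and 1.70 in vehicle pools (adjusted p = 0.000556; limma for both). Against the background level these are at least 1.68-fold and at least 1.60-fold. With all values under background raised to that level, Epb42 no longer passed, at a log2 difference of 0.75 (adjusted p = 0.215, limma) in undecanal pools and 0.68 (adjusted p = 0.263, limma) in vehicle pools.

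**Figure D1:**
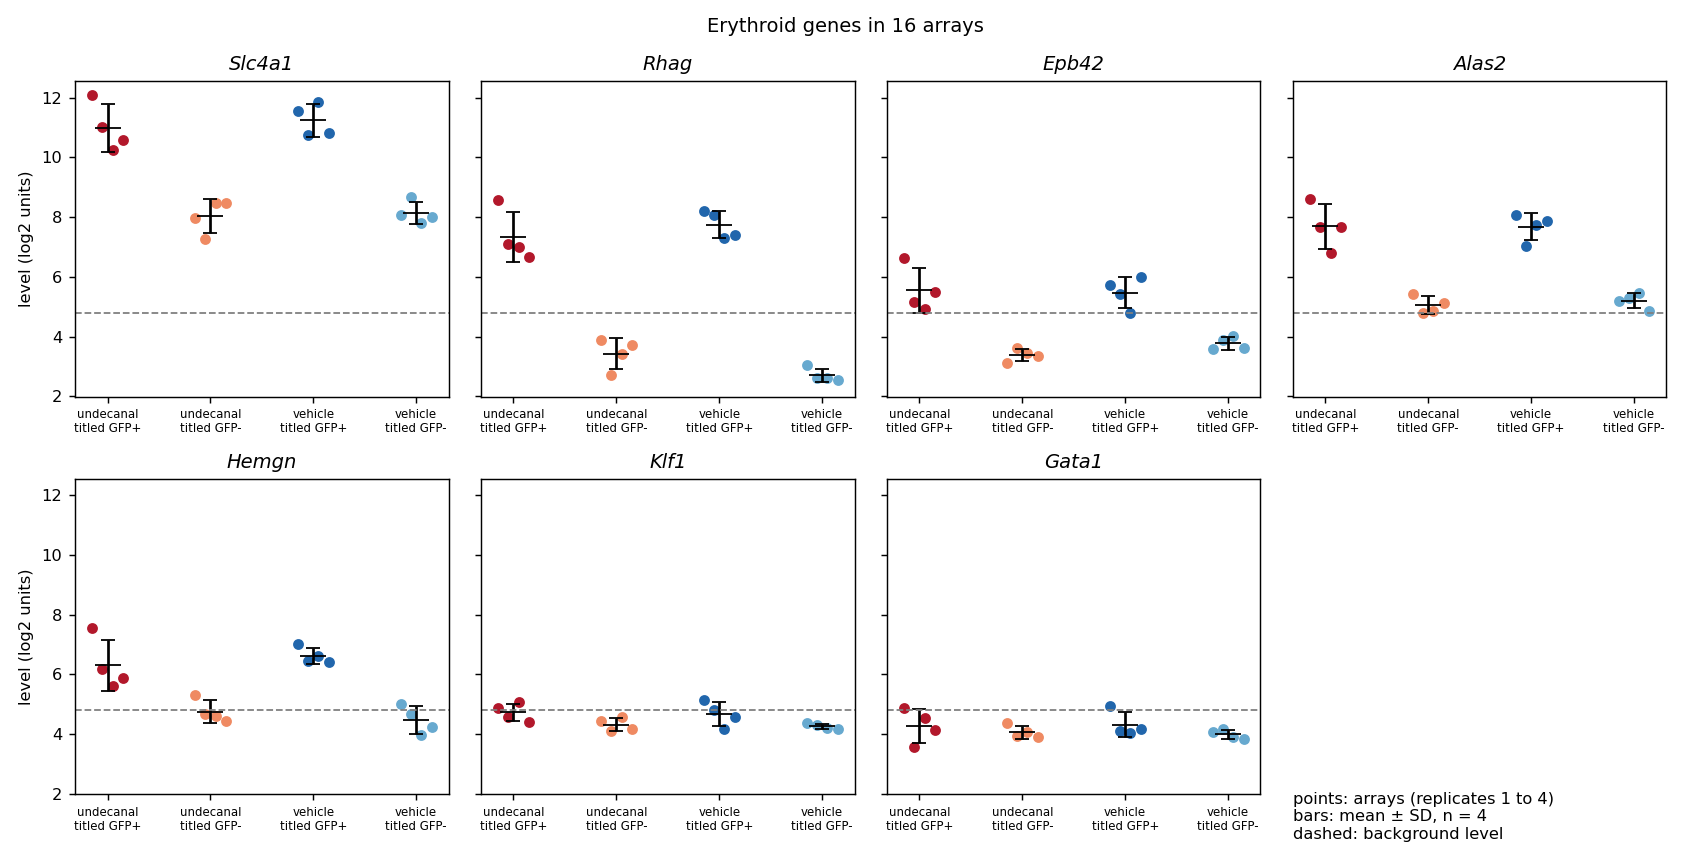
Log2 level of each erythroid gene (y axis) in the 16 arrays, by group (x axis); points are arrays in replicate order, bars the mean with SD (n = 4), and the dashed line is the background level of log2 4.80. Slc4a1, Rhag, Epb42, Alas2 and Hemgn sit higher in titled GFP+ under both agents with no overlap, whereas the group means of Klf1 and Gata1 are all under the dashed line.

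Alas2 catalyses the rate-limiting step of haem synthesis in red cell precursors. The log2 level of Alas2 was 8.61, 7.69, 6.80 and 7.66 in undecanal titled GFP+ cells, against 5.45, 4.78, 4.86 and 5.13 in undecanal titled GFP- cells. In vehicle pools it was 8.08, 7.05, 7.74 and 7.89 in titled GFP+ cells, against 5.19, 5.29, 5.47 and 4.86 in titled GFP- cells. The titled GFP- arrays lay near the background level, with 7 of 8 above it, and no titled GFP+ array reached down to them. Alas2 was 6.22-fold higher in titled GFP+ of undecanal pools (log2 difference 2.64, interval 2.00 to 3.27, adjusted p = 3.59e-06, limma) and 5.60-fold higher in vehicle pools (log2 difference 2.49, interval 1.85 to 3.12, adjusted p = 7.12e-06, limma).

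Hemgn takes part in the growth and survival of blood-forming cells and is a target of Gata1. The log2 level of Hemgn was 7.55, 6.17, 5.63 and 5.89 in undecanal titled GFP+ cells, against 5.32, 4.68, 4.60 and 4.43 in undecanal titled GFP- cells. In vehicle pools it was 7.01, 6.46, 6.61 and 6.41 in titled GFP+ cells, against 5.01, 4.67, 3.97 and 4.23 in titled GFP- cells. Replicate 1 was the highest array of each of the 4 groups, and the fractions did not overlap. The log2 difference was 1.55 in undecanal pools (interval 0.84 to 2.26, adjusted p = 0.00318, limma) and 2.15 in vehicle pools (interval 1.44 to 2.86, adjusted p = 0.000136, limma). Only 1 of 4 titled GFP- arrays per agent was above background, and against that level Hemgn was at least 2.60-fold and at least 3.40-fold higher.

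The 2 transcription factors did not pass between fractions. Klf1, the factor that switches on adult beta-globin and many red cell membrane genes, averaged a log2 level of 4.73 ± 0.29 in undecanal titled GFP+ cells and 4.32 ± 0.22 in undecanal titled GFP- cells. In vehicle pools it averaged 4.67 ± 0.40 in titled GFP+ cells and 4.26 ± 0.09 in titled GFP- cells (SD, n = 4 each). Klf1 was above background in 3 of 16 arrays, all titled GFP+. The log2 difference was 0.41 under both agents (interval 0.00 to 0.81 and adjusted p = 0.206 in undecanal pools, -0.00 to 0.81 and 0.194 in vehicle pools, limma), and 7 of 8 pools had the higher level in titled GFP+. With the arrays centred on the mature neuron list in place of the deposited scale, Klf1 passed, at a log2 difference of 0.59 under both agents (adjusted p = 0.0355 in undecanal pools and 0.0371 in vehicle pools, limma). With centring on the array median the difference was 0.05 under each agent (adjusted p = 0.815 in each), and with values raised to background 0.09 in undecanal pools and 0.08 in vehicle pools (adjusted p = 0.691 and 0.687).

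Gata1, the factor needed for red cell, megakaryocyte, mast cell and eosinophil development, averaged 4.28 ± 0.57 in undecanal titled GFP+ cells and 4.07 ± 0.22 in undecanal titled GFP- cells. In vehicle pools it averaged 4.31 ± 0.42 in titled GFP+ cells and 4.00 ± 0.16 in titled GFP- cells (SD, n = 4 each). The groups overlapped, and 2 of 16 arrays were above background, replicate 1 of each titled GFP+ group. The log2 difference of 0.21 in undecanal pools (interval -0.31 to 0.73, adjusted p = 0.659, limma) and 0.31 in vehicle pools (interval -0.20 to 0.83, adjusted p = 0.461, limma) changed sign with centring on the array median, to -0.15 and -0.04. Smaller differences of either factor were not detectable at levels this near background.

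Of the 7 genes, 5 were called higher in titled GFP+ of undecanal pools and 5 in vehicle pools, and none lower. Over all probe sets, limma called 8.83% higher and 4.36% lower in undecanal pools, and 8.82% higher and 5.12% lower in vehicle pools. The same 5 genes were the ones whose arrays did not overlap between fractions, which held for 9.43% of all probe sets in undecanal pools and 9.83% in vehicle pools in the higher direction. The median log2 difference of the 7 genes was 2.16 in undecanal pools and 2.15 in vehicle pools, beside -0.11 for all probe sets under each agent. With values raised to background the medians of the 7 genes were 1.38 and 1.77.

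The fractions of a pool came from the same mice, so each pool gives its own difference. The 5 called genes had the higher value in titled GFP+ in 8 of 8 pools, although both Epb42 arrays of vehicle pool 3 were below background. In undecanal pools 1 to 4 the log2 difference of Slc4a1 was 4.10, 3.76, 1.77 and 2.09, and that of Rhag was 4.69, 4.39, 3.59 and 2.95. In vehicle pools 1 to 4 it was 3.47, 2.10, 4.07 and 2.82 for Slc4a1, and 5.17, 5.46, 4.72 and 4.84 for Rhag. Every Rhag difference was taken against a titled GFP- level below background. With that level raised to background the Rhag difference was at least 3.78, 2.30, 2.21 and 1.87 in undecanal pools 1 to 4 and at least 3.41, 3.26, 2.52 and 2.60 in vehicle pools 1 to 4, and the agents overlapped. Epb42 spanned 1.48 to 3.52 in undecanal pools and 0.77 to 2.37 in vehicle pools, Alas2 1.94 to 3.17 and 1.76 to 3.03, and Hemgn 1.03 to 2.23 and 1.79 to 2.64. With values raised to background Epb42 spanned 0.13 to 1.84 in undecanal pools and 0.00 to 1.19 in vehicle pools, and Hemgn 0.83 to 2.23 and 1.60 to 2.00. Averaged over the 7 genes, the difference was 2.67, 2.02, 1.54 and 1.66 in undecanal pools 1 to 4, and 2.47, 1.86, 2.08 and 2.28 in vehicle pools 1 to 4. Pool 1 had the largest average under each agent, and the numbers do not pair mice across agents.

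**Figure D2:**
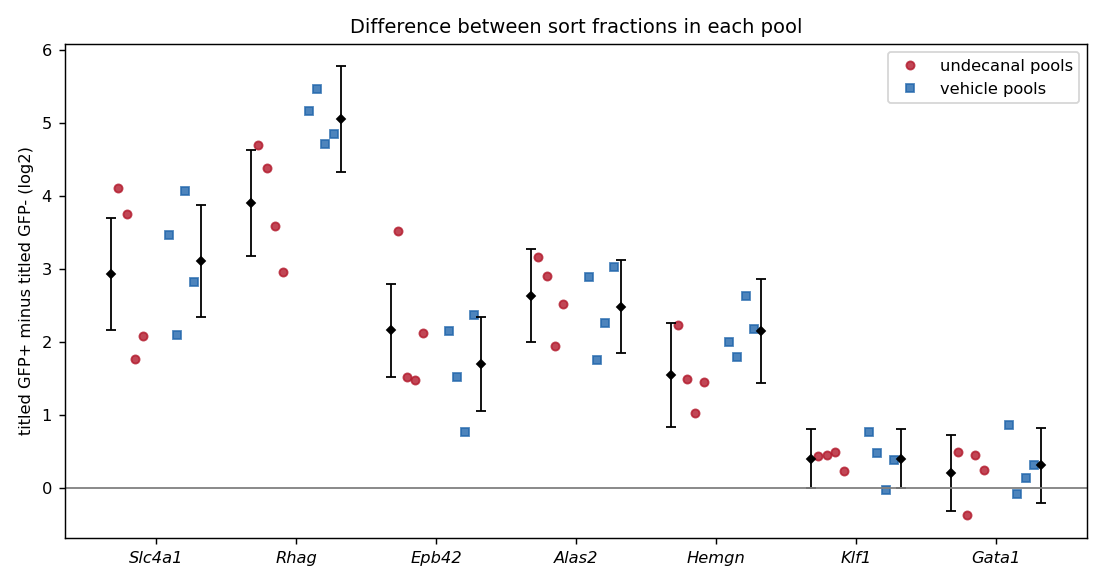
Log2 difference between titled GFP+ and titled GFP- (y axis) for each erythroid gene (x axis), with 1 point per pool (circles undecanal, squares vehicle) and, in black, the limma estimate with its 95% interval. All 8 pools lie above 0 for Slc4a1, Rhag, Epb42, Alas2 and Hemgn, and the titled GFP- arrays of Rhag and Epb42, and most of those of Hemgn, were below background.

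Promoter sequences were set beside these differences for 4 of the 5 called genes, because they show the letters that Gata1 and its relatives are known to bind. The windows are the 250 bases before the annotated start, from RefSeq on GRCm38.p6, read 5′ to 3′ on the gene's strand. Capitals mark AGATAA or TGATAA on either strand, so a match on the opposite strand reads TTATCT or TTATCA. The windows are chrX:150547167-150547416 on the plus strand for Alas2, chr2:121036878-121037127 on the minus strand for Epb42, chr4:46404184-46404433 on the minus strand for Hemgn and chr17:40810899-40811148 on the plus strand for Rhag.
Alas2: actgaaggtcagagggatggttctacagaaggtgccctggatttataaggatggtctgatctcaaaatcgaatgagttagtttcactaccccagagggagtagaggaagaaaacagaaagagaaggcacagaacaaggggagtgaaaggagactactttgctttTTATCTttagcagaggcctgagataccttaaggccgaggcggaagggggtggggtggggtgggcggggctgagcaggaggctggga
Epb42: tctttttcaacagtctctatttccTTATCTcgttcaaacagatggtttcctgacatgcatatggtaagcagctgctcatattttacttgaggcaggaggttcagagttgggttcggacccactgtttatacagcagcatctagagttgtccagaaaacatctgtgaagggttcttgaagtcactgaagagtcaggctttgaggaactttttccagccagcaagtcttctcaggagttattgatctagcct
Hemgn: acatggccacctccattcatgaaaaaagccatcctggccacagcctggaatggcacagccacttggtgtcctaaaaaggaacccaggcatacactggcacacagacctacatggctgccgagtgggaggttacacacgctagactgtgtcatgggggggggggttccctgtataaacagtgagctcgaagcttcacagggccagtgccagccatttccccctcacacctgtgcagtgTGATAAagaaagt
Rhag: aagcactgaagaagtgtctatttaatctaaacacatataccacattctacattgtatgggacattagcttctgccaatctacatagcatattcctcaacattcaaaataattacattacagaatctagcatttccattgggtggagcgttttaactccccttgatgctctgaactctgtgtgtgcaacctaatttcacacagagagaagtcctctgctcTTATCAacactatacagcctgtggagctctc

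Each of the 4 windows held 1 match. In Rhag it was TGATAA on the minus strand, 31 to 26 bases before the start, and in Hemgn TGATAA on the plus strand, 13 to 8 bases before it. In Alas2 and Epb42 it was AGATAA on the minus strand, from 86 and from 226 bases before the start. The table held windows for 6 of the 7 genes, all but Slc4a1. Of these 6, 5 held AGATAA or TGATAA, the exception being Gata1, beside 16.6% of all 32851 windows of the same length. Klf1, which was not called between fractions, held a TGATAA match 80 to 75 bases before its start on the minus strand. CCNCNCCC, the form of box that Klf1 is known to bind, searched on both strands, was in 3 of 6 windows (Alas2, Gata1 and Hemgn) and in 45.9% of all windows. The 4 matches in Hemgn overlapped within 1 run of G. A match describes the letters of a window and is no evidence of binding in these cells.

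Undecanal exposure gave no call among the 7 genes in either fraction. In titled GFP+ cells the adjusted p was 0.999 for each gene and no unadjusted p was under 0.05, whereas 0.0045% of all probe sets (1 probe set) were called higher and 603 probe sets had an unadjusted p under 0.05 by limma. The log2 difference, undecanal minus vehicle, was -0.27 for Slc4a1 (interval -1.04 to 0.50), -0.41 for Rhag (interval -1.13 to 0.32) and 0.08 for Epb42 (interval -0.56 to 0.72). It was 0.00 for Alas2 (interval -0.63 to 0.64), -0.31 for Hemgn (interval -1.02 to 0.40), 0.06 for Klf1 and -0.03 for Gata1. The arrays of the agents overlapped for all 7 genes, beside 1.11% of all probe sets with every undecanal array higher and 0.761% with every one lower. The intervals of the 7 genes lay between -1.13 and 0.72, and smaller shifts could not be told from the spread of 4 arrays.

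In titled GFP- cells the adjusted p was 1 for each gene, and 0.0% of all probe sets were called in either direction by limma, with 914 at an unadjusted p under 0.05. The log2 difference ran from -0.39 for Epb42 to 0.73 for Rhag, with a median of 0.06. Rhag had an unadjusted p of 0.0486 (interval 0.01 to 1.46), and 3 of 4 undecanal arrays stood above every vehicle array. All 8 of these Rhag values were below background, and with values raised to that level the difference was 0.00.

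The interaction asks whether the difference between fractions was itself different in undecanal pools. None of the 7 genes passed (adjusted p = 1 for each, limma, beside 0.0% of all probe sets called and 584 at an unadjusted p under 0.05). Rhag gave a log2 -1.14 (SE 0.488, interval -2.17 to -0.11, unadjusted p = 0.032), the other 6 genes between -0.60 for Hemgn and 0.46 for Epb42. The Rhag value contains the titled GFP- levels that were below background.

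Within groups, most pairs of the 7 genes deviated in the same direction. Over the 21 gene pairs, Pearson's r of the deviations from group means across 16 arrays ran from -0.018 to 0.762 with a median of 0.551, and 20 pairs were positive. The points share arrays and pools, and so any difference in quality or scale between arrays. Replicate 1 of undecanal titled GFP+ deviated most, by an average of log2 0.90 above its group, and it was the highest array of its group for 6 of 7 genes. Without it, the median over 15 arrays was 0.275, from -0.138 to 0.728, with 18 of 21 pairs positive. Over the 8 titled GFP+ arrays the median was 0.576, from -0.096 to 0.885, with 19 pairs positive, and over the 8 titled GFP- arrays it was 0.311, from -0.751 to 0.826, with 15 positive. Most genes were near or below background in titled GFP-. Replicate 1 of vehicle titled GFP+ was the highest of its group for 5 of 7 genes.

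**Figure D3:**
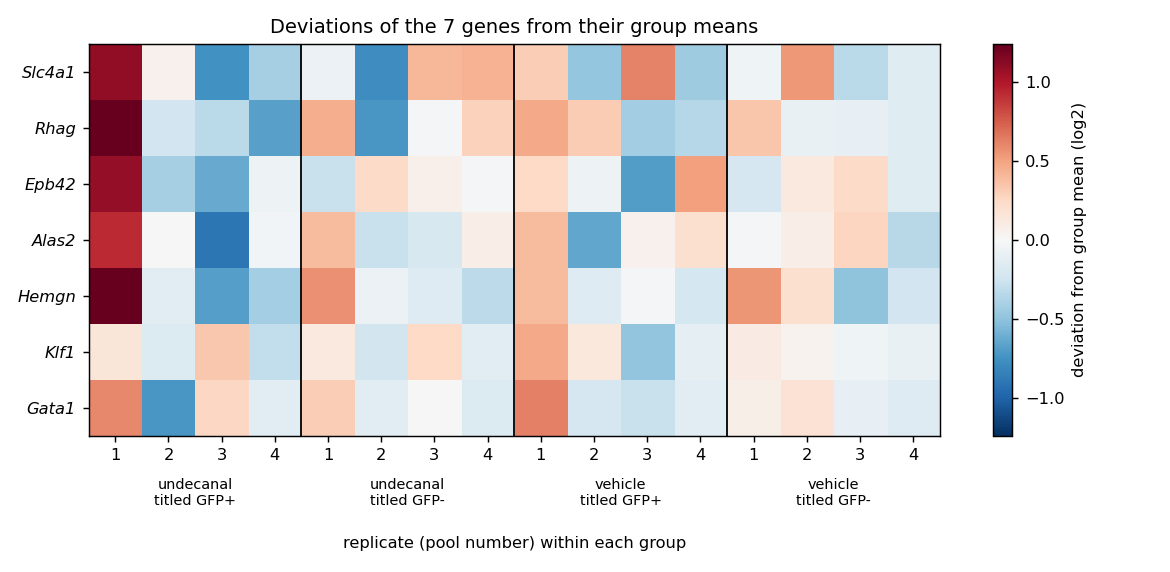
Deviation of each gene (rows) from its group mean, as log2 colour, in each array (columns, replicates 1 to 4 in 4 groups). Replicate 1 of undecanal titled GFP+ is the column that deviates most, by an average of log2 0.90, and it is the highest of its group for 6 of 7 genes.

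Other lists followed the same arrays to unequal degrees. The mean deviation of the other red cell genes correlated with that of the 7 genes at r = 0.848 over 16 arrays and 0.677 without replicate 1 of undecanal titled GFP+. The membrane and skeleton list gave 0.825 and 0.574, the cell cycle list 0.751 and 0.614, and the lymphocyte list 0.679 and 0.465. Not all red cell lists were this close. The iron list gave 0.685 and 0.436 and the transcription and signalling list 0.678 and 0.542. The haem synthesis list gave 0.192 and 0.027, and the globins, all below background, 0.27 and 0.193. Neutrophil markers gave 0.219 and 0.208, and monocyte and macrophage markers 0.363 and 0.131. The array median over all probe sets itself gave 0.587 and 0.412, and mature neuron markers 0.529 and 0.337, beside a median of -0.023 and -0.017 over all probe sets taken singly. The order of the lists was not the same in the 2 fractions. Over the 8 titled GFP+ arrays r was 0.919 for other red cell genes, 0.906 for membrane and skeleton genes, 0.137 for neutrophil markers and -0.574 for mast cell and basophil markers. Over the 8 titled GFP- arrays r was 0.422, 0.167, 0.556 and 0.737 for the same 4 lists. High values in titled GFP+ were not particular to red cell lists. Over the 8 titled GFP+ arrays r was 0.778 for vascular, 0.771 for cell cycle, 0.765 for mature neuron, 0.763 for sustentacular and 0.721 for lymphocyte markers. Over the 8 titled GFP- arrays these 5 lists gave -0.411, 0.602, 0.344, -0.223 and 0.286.

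Among 12325 probe sets above background with 1 symbol, the 10 whose deviations were most like the average of the 7 genes had r from 0.834 to 0.883 over 16 arrays and from 0.618 to 0.809 without that replicate. They were the histone genes H2ac20, H2bc11, H2bc15 and H2ac10, the T and NK cell surface gene Cd2, the zinc finger gene Zfp455, the odorant receptor gene Olfr272, the cell cycle inhibitor gene Cdkn2c, the G-protein regulator Rgs1 and the mitotic entry gene Cdca3. They were the top 10 of many candidates over few arrays. Between fractions, Cdca3 was a log2 2.09 higher in titled GFP+ of undecanal pools and 2.33 in vehicle pools (adjusted p = 8.76e-05 and 2.64e-05, limma). H2ac20, which had the highest r, differed by 0.25 under each agent and did not pass.

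Beyond the 7 genes, 69 of 81 genes in the red cell lists were measured. The lists also hold genes of other blood lineages, such as Spi1, so their counts are not of red cell genes alone. Of the 69 genes, 26 were called higher in titled GFP+ of undecanal pools and 25 in vehicle pools, none lower. Over all probe sets, limma called 8.83% and 8.82% higher. The median log2 difference of the 69 genes was 0.29 in undecanal pools and 0.50 in vehicle pools. With values raised to background 16 were called in undecanal pools, and with mature neuron centring 38 in vehicle pools. Among membrane and skeleton genes 7 of 17 were called higher under each agent. Aqp1, a water channel of red cells and of other tissues, was a log2 2.57 higher in undecanal pools and 3.28 in vehicle pools. Sptb, the erythroid beta-spectrin, was 2.29 higher in undecanal pools and 2.02 in vehicle pools, Ermap, an erythroid membrane protein, 1.35 and 1.94, and Slc14a1, a urea transporter of red cells and kidney, 1.90 under each agent. The titled GFP- means of Sptb and Ermap were below background, and with values raised to that level neither passed in limma (Sptb adjusted p = 0.0554 in undecanal pools and 0.0766 in vehicle pools, Ermap 0.693 and 0.364). The count of 7 fell to 2 under each agent with that setting.

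Among genes of haem synthesis other than Alas2, 0 of 10 were called in undecanal pools and 1 in vehicle pools, Ppox, the enzyme of the step before the last. Ppox gave a log2 difference of 0.25 in undecanal pools (adjusted p = 0.521, limma) and 0.67 in vehicle pools (adjusted p = 0.0374, limma). The vehicle call was lost without replicate 1 (adjusted p = 0.0935), 2 (0.164) or 3 (0.145) of the vehicle pools, whereas the count was 3 with the pool as a random block. Of 10 globin genes listed, 4 were measured: Hba-x, Hbb-bh1, Hbb-bh2 and Hbb-y, which are embryonic or minor globin genes. All 4 were below background in every group mean, and none was called in either direction (medians of -0.14 in undecanal pools and -0.02 in vehicle pools). With centring on the array median, limma called Hbb-bh1 and Hbb-y lower in undecanal pools (adjusted p = 0.00948 and 0.00831) and Hbb-bh2 lower in vehicle pools (adjusted p = 0.0229). That setting called 11129 of all 22206 probe sets lower in undecanal pools and 11231 in vehicle pools, so these calls are not particular to globins. Hbb-bh1 also passed as lower on the deposited scale without undecanal replicate 2 (adjusted p = 0.0485, limma). The adult globin genes on the list had no probe set under the listed symbols in the platform annotation, so they were not analysed here. In the iron list 3 of 8 genes were called under each agent. Slc40a1, the iron exporter ferroportin, was at least 2.52-fold higher in undecanal pools and at least 2.23-fold in vehicle pools, since its titled GFP- levels were all below background. The other calls were Ftl1, a ferritin light chain, by a log2 1.37 in undecanal pools and 1.47 in vehicle pools, and Slc25a37, the mitochondrial iron carrier of erythroblasts, by 1.08 and 0.90.

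The transcription and signalling list had 8 of 16 genes called higher in undecanal pools and 7 in vehicle pools. The members with the largest differences were genes of other blood lineages as well. Spi1, the master factor of myeloid cells, was a log2 7.89 higher in undecanal pools and 8.31 in vehicle pools. The titled GFP- means of the next 3 were below background, so their size is a lower bound. Myb, a factor of dividing progenitors, was at least 17.3-fold higher in undecanal pools and at least 18.7-fold in vehicle pools, and Runx1, a factor of blood stem cells and several lineages, at least 5.80-fold and at least 6.94-fold. Lyl1, a factor of early blood cells, was at least 1.94-fold and at least 2.14-fold higher, and with values raised to background it no longer passed in undecanal pools (adjusted p = 0.055, against 0.0257 in vehicle pools, limma). Of the other red cell genes, 8 of 14 were called in undecanal pools and 7 in vehicle pools, with 5 in undecanal pools when undecanal replicate 1 or 2 was left out. Car1, a carbonic anhydrase of red cells and colon, was at least 18.9-fold higher in undecanal pools and at least 23.4-fold in vehicle pools. E2f2, a cell cycle factor of erythroblasts and other dividing cells, was at least 10.4-fold and at least 12.4-fold higher. Both are set against the background level, because their titled GFP- means lay under it.

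Markers of other blood cells were higher in the same fraction, and their part in the erythroid differences was not tested. The share of all probe sets called higher by limma was 8.83% in undecanal pools and 8.82% in vehicle pools. Neutrophil markers were called higher for 12 of 12 genes in undecanal pools and 11 of 12 in vehicle pools, with medians of log2 8.11 and 8.06. Lcn2, Ngp and Retnlg, all proteins of neutrophil granules or secretions, differed by 11.48, 11.55 and 10.43 in undecanal pools and by 11.31, 10.86 and 10.33 in vehicle pools. The Retnlg mean in undecanal titled GFP- cells was just below background. The summed level of the list was log2 18.03 to 18.68 in undecanal titled GFP+ arrays, against 8.18 to 8.83 in undecanal titled GFP- arrays. In vehicle pools the sum was 18.03 to 18.78 in titled GFP+ arrays, against 8.41 to 9.08 in titled GFP- arrays. Of the 12 markers, 4 had a mean above background in undecanal titled GFP- cells and 8 in vehicle titled GFP- cells.

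Monocyte and macrophage markers were called higher for 11 of 12 genes in undecanal pools and 10 in vehicle pools. Their median was log2 2.23 under each agent, and the largest difference was that of Lyz2, at 8.74 and 8.62. Their summed level was 13.75 to 15.07 in undecanal titled GFP+ arrays, against 7.63 to 8.24 in undecanal titled GFP- arrays, and 14.45 to 14.89 in vehicle titled GFP+ arrays, against 7.62 to 8.46 in vehicle titled GFP- arrays. Lymphocyte markers were called higher for 6 of 8 genes in undecanal pools and 5 in vehicle pools, with 3 in undecanal pools without undecanal replicate 2. The lymphocyte sums were 8.20 to 11.43 in undecanal titled GFP+ arrays, against 6.93 to 7.24 in undecanal titled GFP- arrays, and 8.57 to 10.86 in vehicle titled GFP+ arrays, against 7.07 to 7.46 in vehicle titled GFP- arrays. No lymphocyte marker had a titled GFP- mean above background. Mast cell and basophil markers had 4 of 10 calls under each agent, beside 8.83% of all probe sets in undecanal and 8.82% in vehicle pools. The largest difference was that of Hdc, the histamine-making enzyme, at 3.90 in undecanal pools and 4.53 in vehicle pools. The median of this list was 0.23 in undecanal pools and 0.22 in vehicle pools, with 6 of 10 genes higher under each agent. A mean above background in any group was reached by 3 of the 10. All 5 measured cell cycle genes were called under each agent, with Mki67 at 4.85 and 5.11.

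Limma called 8.83% of all probe sets higher in undecanal pools and 8.82% in vehicle pools. Counts near that share came from the megakaryocyte and platelet list, whose cells share Gata1 with red cells. It had 0 of 10 calls in undecanal pools and 1 in vehicle pools. The call was Selp, an adhesion protein of platelets and endothelium, at a log2 0.86 (adjusted p = 0.0245, limma), with both vehicle means below background, and it was lost without vehicle replicate 1, 2 or 4 (adjusted p = 0.0926, 0.0851 and 0.131). With the pool as a random block 2 genes were called in vehicle pools. The list's medians were -0.18 in undecanal pools and -0.06 in vehicle pools. Vascular markers had 1 call of 6 in undecanal pools, Pecam1 at 0.82 (adjusted p = 0.0246, limma), and 0 in vehicle pools. The Pecam1 call was lost without undecanal replicate 1, 3 or 4 (adjusted p = 0.0915, 0.0879 and 0.0502), and its titled GFP- means were below background. Mature olfactory neuron markers had 0 of 11 called higher, and 1, the channel gene Ano2, called lower under each agent, by a log2 -0.42 in undecanal pools and -0.51 in vehicle pools. The Ano2 call in undecanal pools was lost without undecanal replicate 1, 2 or 3 (adjusted p = 0.0764, 0.1 and 0.0735), and both calls were lost with mature neuron centring (adjusted p = 0.279 in undecanal pools and 0.071 in vehicle pools). No member of these lists was called for undecanal in either fraction.

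**Figure D4:**
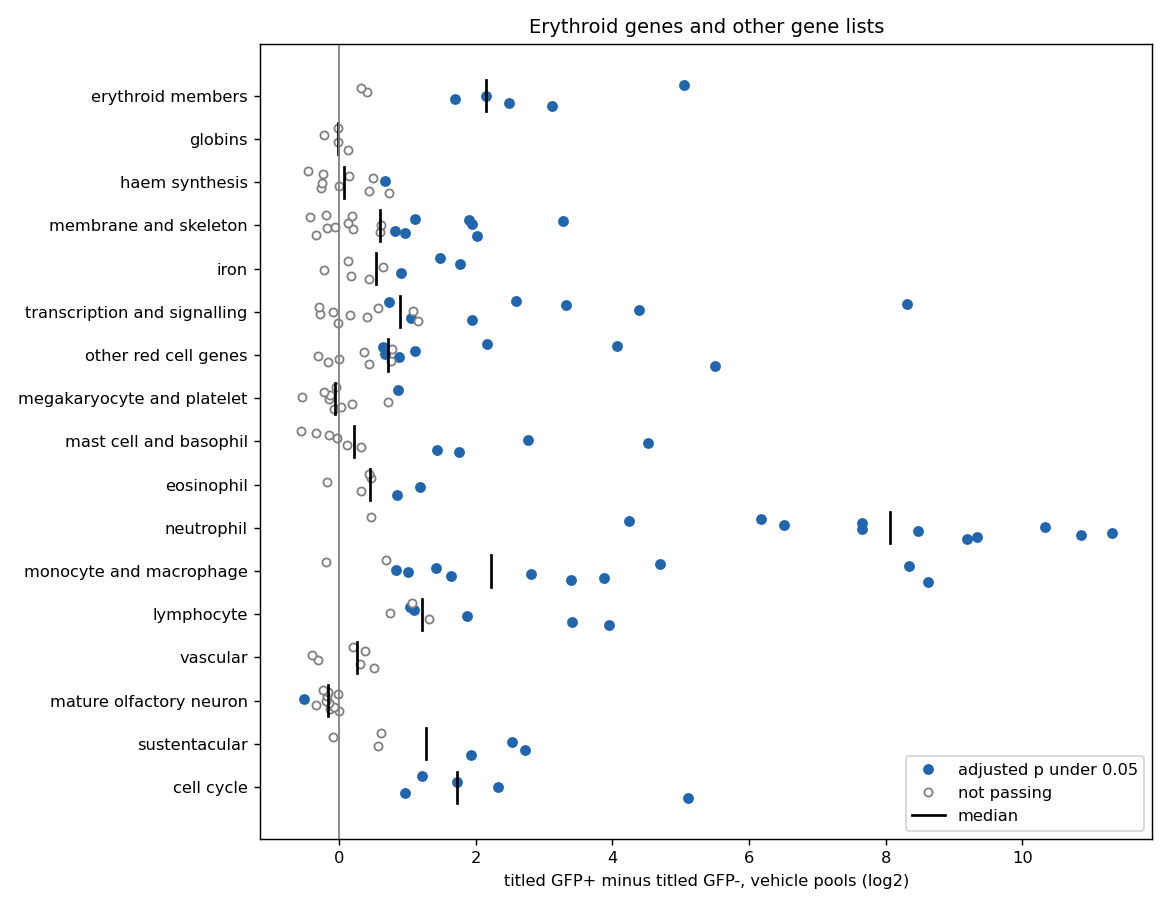
Log2 difference between titled GFP+ and titled GFP- in vehicle pools (x axis) for the erythroid genes and 16 other gene lists (y axis); each point is a gene, filled where the adjusted p was under 0.05, and the black bar is the list's median. The 7 erythroid genes have a median of 2.15, neutrophil markers 8.06 and megakaryocyte and platelet markers -0.06. The globins, at -0.02, are 4 embryonic or minor genes with every group mean below background, and adult globins are not among them.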

How the data were processed

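RNA of 16 samples was measured on Clariom S arrays. Per the submitters' processing notes, the deposited log2 values are the authors' output of Affymetrix Expression Console, 1 summary per probe set. Which algorithm, version and annotation build were used is not given in the sources used here. Of 28846 rows, 6640 control rows were left out. Of 22206 probe sets, 19572 had 1 gene in the platform annotation and 2634 none.

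Groups followed the titles. With limma 3.58.1 in R 4.3.3 (lmFit, eBayes), all 16 arrays entered 1 model with a mean per group and no block, with Benjamini-Hochberg adjustment over 22206 probe sets and a threshold of 0.05. A called gene passed it. Intervals are 95% intervals of the fit. The code was tested on simulated data. The erythroid genes, lists and rules for named genes were chosen with earlier results of these data known. Named genes come from a rule, not all of them in the text: the 7 genes, S100a5 and Omp, all measured globins, per list up to 4 or 3 passing genes with the largest difference in vehicle pools, and the 10 genes most like the 7 in their deviations.

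With 24 mice in pools of 3, same-numbered arrays of 1 agent were taken as fractions of the same mice. Their deviations from group means correlated at r from 0.05 to 0.271, over 0.1 in 6 of 8 pools. Arrays of the same number under the other agent, which share no mice, gave r from -0.058 to 0.291. For replicate 1 these r were 0.124 to 0.291, beside 0.243 and 0.229 within pools, so likeness there was not specific to shared mice. For replicates 2 to 4 they reached at most 0.099, beside 0.05 to 0.271 within pools. The fit without a block treats the 2 fractions of a pool as independent. Alternatives covered scaling, dim probe sets, prior variance, array weights, samples fitted, replicate blocks, adjustment and left-out pools.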

Additional observations from a re-analysis of the deposited data

Results flagged for a closer look

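In each group of 4 arrays, and in each set of 4 pools, the highest and lowest value of a gene was set against the nearest of the others by Dixon's ratio at its 95% critical value for 4 values. Of 42 such sets, 2 were past it, and chance gives about 1 in 20. Gata1 stood apart in replicate 1 of vehicle titled GFP+, at a log2 level of 4.94, against 4.04 to 4.17 in the other 3 arrays. Rhag stood apart in replicate 1 of vehicle titled GFP-, at a log2 level of 3.05, against 2.55 to 2.61 in the other 3, all below background.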

How the results depend on the processing

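Slc4a1, Rhag, Alas2 and Hemgn were called higher in titled GFP+ under all 21 alternatives in undecanal and in vehicle pools, and Epb42 under 20, the exception being values raised to the background level. Over the 7 genes, 672 of 704 values kept direction and side of the threshold, 28 changed sign, 2 lost the call (Epb42) and 2 gained it (Klf1, centred on the mature neuron list). Each gene had 1 probe set, so the choice of the lowest-mean probe set gave no value. With the pool as a paired replicate block the counts of called genes stayed at 5, the medians at 2.16 in undecanal pools and 2.15 in vehicle pools, and no call of the named genes tried changed. Among the other lists the block moved the counts given above for haem synthesis and for megakaryocyte and platelet genes in vehicle pools.

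The median of the 7 genes in undecanal pools moved from 2.16 to 2.64 with dim probe sets left out (5 genes left) and to 1.38 with values raised to background. Centring on the array median shifted the median of all probe sets to -0.46 in undecanal pools and -0.47 in vehicle pools, from -0.11 in each, with 1584 higher and 11129 lower calls in undecanal pools and 1570 and 11231 in vehicle pools. The deposited scale gave 1960 higher and 969 lower in undecanal pools, and 1959 and 1138 in vehicle pools. Quantile normalization gave 1869 and 1752, and 1876 and 1830. Mature neuron centring gave 2530 and 467, and 2567 and 513, with medians of all probe sets of 0.08 and 0.07. Values raised to background gave 1445 and 732, and 1439 and 880, and Benjamini-Yekutieli adjustment 1353 and 382, and 1337 and 413. Lower calls were 614 and 624 in undecanal pools without undecanal replicate 1 and 2, and 714 and 706 in vehicle pools without vehicle replicate 1 and 2. Of 714 counts of calls in the other lists, 69 moved by over 1.5 times or to or from 0. With values raised to background they were 2 in undecanal and 1 in vehicle pools for lymphocyte genes (6 and 5 before), 3 under each agent for cell cycle genes (5 before) and 5 in undecanal pools for transcription and signalling genes (8 before). Mature neuron centring gave 11 of the last in vehicle pools (7 before). The cause of these shifts was not tested.

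Changes of sign were all in values that did not pass. With median centring they were Gata1 (-0.146 in undecanal pools, -0.041 in vehicle pools), Hba-x (-0.261 and -0.219) and Ppox in undecanal pools (-0.112). With mature neuron centring they were Hbb-bh2 (0.17) and Prg2 (0.153) in undecanal pools, and Hbb-bh1 (0.162) and Hbb-y (0.168) in vehicle pools. Quantile normalization gave Hbb-bh2 0.078 in undecanal pools and Hbb-y 0.093 in vehicle pools. Array weights gave Hbb-bh2 0.052 in undecanal pools, Hbb-bh1 0.03 in vehicle pools and Alas2 -0.022 for undecanal in titled GFP+. With 1 pool left out, undecanal in titled GFP+ ran from -0.305 to 0.3 for Alas2, -0.287 to 0.283 for Epb42, -0.098 to 0.219 for Klf1 and -0.231 to 0.209 for Gata1. In titled GFP- it ran from -0.23 to 0.17 for Slc4a1, -0.02 to 0.138 for Klf1 and -0.031 to 0.131 for Gata1. The interaction ran from -0.572 to 0.204 for Slc4a1, -0.091 to 0.382 for Alas2, -0.142 to 0.123 for Klf1 and -0.232 to 0.09 for Gata1. The difference between fractions ran from -0.189 to 0.123 for Hbb-bh2 and -0.468 to 0.254 for Prg2 in undecanal pools, and from -0.012 to 0.262 for Hba-x, -0.29 to 0.226 for Hbb-bh1 and -0.106 to 0.113 for Hbb-y in vehicle pools.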

Other observations

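Of 6 markers of sustentacular cells, the supporting cells of the olfactory epithelium, 5 were higher in titled GFP+ under each agent. The list's median was log2 1.28 in undecanal pools and 1.27 in vehicle pools, and its lowest difference -0.17 and -0.09. Called higher under each agent were 3 of 6, beside 8.83% of all probe sets in undecanal pools and 8.82% in vehicle pools. Those 3 are the genes named next. Cyp2g1 differed by a log2 1.79 in undecanal pools and 1.92 in vehicle pools, Sult1c1 by 2.78 and 2.52, and Cyp1a2 by 2.15 and 2.71. The mean deviation of the 6 markers correlated with that of the 7 erythroid genes at r = 0.763 over the 8 titled GFP+ arrays. This r was 0.557 without replicate 1 of undecanal titled GFP+, and -0.223 over the 8 titled GFP- arrays.

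Eosinophil markers, whose cells also depend on Gata1, had 2 of 6 calls under each agent. The count was 1 in undecanal pools when undecanal replicate 2, 3 or 4 was left out. With values raised to background it was 0 under each agent. The list's median was log2 0.02 in undecanal pools, with 3 of 6 genes higher, and 0.45 in vehicle pools, with 5 higher. A mean above background in any group was reached by 1 of the 6. Limma called 8.83% and 8.82% of all probe sets higher. Siglecf differed by 0.86 in undecanal pools and 0.84 in vehicle pools, with every group mean below background. Prg2 gave -0.03 in undecanal pools and 1.19 in vehicle pools (adjusted p = 0.972 and 0.0306, limma), and the vehicle call was lost with any 1 vehicle pool left out.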
